A study of Mus musculus with 36 samples.

Results

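The natural killer (NK) lectin receptor genes of mouse chromosome 6 were described by their replication timing (RT), the point of S phase at which the DNA that holds them is copied. Members were all genes whose symbol begins with Klra, Klrb, Klrc, Klrd, Klre, Klrg, Klri, Klrk or Clec and whose start lies on chromosome 6 in the mm9 gene annotation. There were 55 members among 37310 annotated genes, 37252 of which had an RT state. Of the members 51 were annotated as protein-coding, 3 as pseudogenes (Clec2f-ps, Klra11 and Klra14) and 1 as a processed transcript (Klra23).

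RT came from Repli-seq, in which dividing cells take up the label BrdU, are sorted into early and late S phase, and the labelled DNA of each fraction is sequenced. The series held 36 libraries in 7 groups, and 8 of those libraries lie behind the pair of B cell maps described here. One map was made from CH12, a B cell lymphoma line of the mouse, kept in medium with IL4, CD40 and TGF beta stimulation, with normal Rif1 and a lentiviral short hairpin against LacZ as the infection control (CH12 shLacZ, 4 libraries). The other was made from activated primary B cells of the spleen of WT mice on a C57BL/6 background (priB WT, 4 libraries). Another map is named for WT mouse embryonic fibroblasts (MEF WT) and is tied by the labels to no sample of the series. The 5 groups with loss of Rif1 or depletion of Mcm6 were not analysed here. Each map splits the mm9 genome into domains of 20 kb bins with an early (E), middle (M) or late (L) state. The authors merged the replicates before segmentation, which leaves 1 map per condition. The values therefore carry no replicate error, and differences between maps were not tested. Wilson 95% intervals cover the counting of genes or bins only, and genes or bins that share a domain are not independent. Read depth is unknown from the maps.

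NK cells are lymphocytes that weigh activating against inhibitory signals before they kill a target cell, and many of their receptors belong to the C-type lectin superfamily. In the mouse the Ly49 receptors, encoded by the Klra genes, read classical MHC class I molecules. CD94, encoded by Klrd1, pairs with the NKG2 proteins of the Klrc genes to read the nonclassical molecule Qa-1, while NKG2D, encoded by Klrk1, binds stress-induced ligands. The NKR-P1 receptors of the Klrb genes bind proteins encoded by their Clec2 neighbours, so that receptor and ligand genes are interleaved. The Clec4 genes, together with Clec7a, Clec9a, Clec12a and Clec1b, encode lectins of myeloid cells, dendritic cells and platelets. B cells and fibroblasts are not known for use of most of these receptors. Early replication is in general a property of gene-rich and active chromatin, late replication of gene-poor and silent chromatin.

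The sequences shown here carry the contrasts described further on. They are the 250 bases before the start of 5 members with different states over the maps, from RefSeq on build GRCm38.p6, 5′ to 3′ on the gene's own strand, with each CpG in capitals. Coordinates on that build are not those of the mm9 maps. Klrb1c encodes NK1.1, the classical NK cell marker of C57BL/6 mice, and was E in both B cell maps and M in MEF WT. Klrk1 was M in all 3 maps. Klra17 was L in CH12 shLacZ and MEF WT but M in priB WT, and Klra4 was L in all 3 maps. Clec2l, which lies far from the NK complex, was E in all 3 maps.
Klrb1c, chr6:128788642-128788891, minus strand: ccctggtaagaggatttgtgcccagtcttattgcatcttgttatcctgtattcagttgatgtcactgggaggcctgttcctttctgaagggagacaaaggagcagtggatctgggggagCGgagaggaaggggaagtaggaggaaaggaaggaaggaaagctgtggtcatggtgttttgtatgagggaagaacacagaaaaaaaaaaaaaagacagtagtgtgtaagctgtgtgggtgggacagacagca
Klrk1, chr6:129623865-129624114, minus strand: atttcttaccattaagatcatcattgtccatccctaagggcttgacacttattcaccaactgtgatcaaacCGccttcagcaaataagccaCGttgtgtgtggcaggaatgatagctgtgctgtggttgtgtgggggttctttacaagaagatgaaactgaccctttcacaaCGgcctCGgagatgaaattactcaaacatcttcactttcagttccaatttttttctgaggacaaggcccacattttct
Klra17, chr6:129876673-129876922, minus strand: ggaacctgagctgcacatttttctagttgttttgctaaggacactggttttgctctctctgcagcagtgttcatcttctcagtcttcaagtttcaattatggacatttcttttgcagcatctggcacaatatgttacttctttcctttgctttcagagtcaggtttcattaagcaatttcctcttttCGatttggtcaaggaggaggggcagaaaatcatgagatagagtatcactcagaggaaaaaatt
Klra4, chr6:130067272-130067521, minus strand: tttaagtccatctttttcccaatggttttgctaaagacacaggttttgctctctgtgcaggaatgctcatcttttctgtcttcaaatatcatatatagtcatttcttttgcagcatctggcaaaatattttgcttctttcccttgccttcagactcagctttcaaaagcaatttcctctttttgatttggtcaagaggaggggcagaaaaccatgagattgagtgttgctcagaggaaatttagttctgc
Clec2l, chr6:38662819-38663068, plus strand: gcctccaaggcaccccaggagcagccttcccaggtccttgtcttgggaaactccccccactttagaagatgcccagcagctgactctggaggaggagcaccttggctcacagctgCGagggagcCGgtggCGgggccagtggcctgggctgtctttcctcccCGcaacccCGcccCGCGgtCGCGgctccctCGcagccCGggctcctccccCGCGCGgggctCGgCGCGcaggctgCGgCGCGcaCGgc
The stretch before Clec2l held 21 CpG, the one before Klrk1 held 4, those before Klrb1c and Klra17 held 1 each, and that before Klra4 held 0. Over the 300 bases from 250 before to 50 after the start, the Klra17 and Klra4 promoters were 79.9% identical. The states of these genes differed in priB WT, where Klra17 started 33.3 kb from a domain edge. A link of promoter sequence with state was not tested. Most members resembled the CpG-poor examples: 43 of the 55 had an entry in the promoter table, their median CpG number was 2 against 7 over 27025 promoters, and their median GC content was 40.0% against 52.7%. Of those 43 promoters 22 held 2 or fewer CpG, a property of 23.8% of all promoters in the table. The CpG numbers of members with different states overlapped. They ran from 0 to 29 in the 3 promoters of members E in all maps, where Clec4f held 0. The range was 0 to 7 in 15 that were E in both B cell maps and M in MEF WT. It was 0 to 3 in 9 that were L in all maps.

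Sequence is also shared within the gene bodies, which matters for a map made from reads that align once. A word of 50 bases that the most Ly49 genes share was found at 6 places on chromosome 6 of mm9 and at 0 places on the other chromosomes.
Ly49 word: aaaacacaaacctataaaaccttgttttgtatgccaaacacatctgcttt
Its copies lie on the minus strand, outside annotated exons, in Klra11 (chr6:130033387-130033436), Klra8 (chr6:130065992-130066041), Klra14 (chr6:130099576-130099625), Klra9 (chr6:130129460-130129509), Klra10 (chr6:130219680-130219729) and Klra3 (chr6:130274074-130274123). The annotated Klra9 model is 157053 bp long and runs across Klra7, Klra10, Klra23 and part of Klra3, so its annotated start is uncertain. A corresponding word of the NKR-P1 genes was found at 3 places, again on chromosome 6 alone.
NKR-P1 word: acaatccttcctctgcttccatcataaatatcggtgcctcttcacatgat
These copies lie outside annotated exons in Klrb1a (chr6:128570194-128570243), Klrb1c (chr6:128735867-128735916) and Klrb1-ps1 (chr6:129069908-129069957). The copy in Klrb1-ps1 is on the plus strand and the others are on the minus strand.

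In CH12 shLacZ cells 22 of the 55 members were E (40.0%, Wilson 95% interval 28.1 to 53.2%), 14 were M (25.5%, 15.8 to 38.3%) and 19 were L (34.5%, 23.4 to 47.7%). Over all annotated genes 44.8% were E, 26.9% M and 28.4% L in that map, so the members' shares were near the background. In priB WT cells 24 members were E (43.6%, 31.4 to 56.7%), 19 were M (34.5%, 23.4 to 47.7%) and 12 were L (21.8%, 12.9 to 34.4%), beside 51.7%, 30.9% and 17.4% of all genes. The interval of each share held the background value in both B cell maps. MEF WT differed: 3 members were E (5.45%, 1.87 to 14.9%), 34 were M (61.8%, 48.6 to 73.5%) and 18 were L (32.7%, 21.8 to 45.9%), whereas 51.8% of all genes were E, 31.9% M and 16.3% L. The background lay outside the members' counting interval for each state of the MEF WT map. Among the genes of chromosome 6 alone 22.3% were L in MEF WT, which lay inside the members' interval, while their E share of 44.6% and M share of 33.1% lay outside it. These counts came from 9 domains in CH12 shLacZ, 10 in priB WT and 7 in MEF WT, so the intervals are too narrow. Counted by domain, 4 of 9 in CH12 shLacZ were M (44.4%), 1 of 10 in priB WT was L (10%) and 2 of 7 in MEF WT were E (28.6%). Such counts hold many M domains by construction, because M domains part E from L domains in each map. The shares of states over all domains were not computed, so these values have no background.

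**Figure D1:**
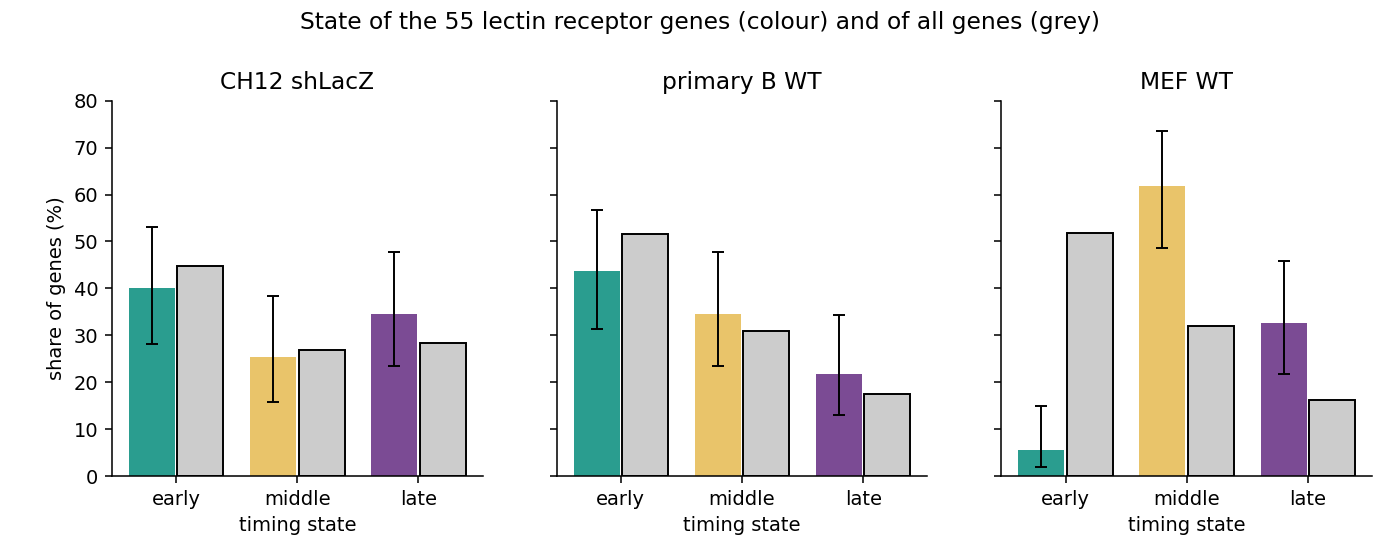
Share of genes (%) in the early, middle and late state of the CH12 shLacZ, primary B WT and MEF WT maps. Coloured bars show the 55 lectin receptor genes with Wilson 95% intervals and grey bars all 37252 annotated genes; members were E in 40.0% and 43.6% in the B cell maps and in 5.45% in MEF WT.

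The states of a gene over CH12 shLacZ, priB WT and MEF WT, in that order, form a combination. The most common one among the members was E, E and M, with 19 of 55 (34.5%), a combination of 4.34% of all genes. L in all 3 maps followed with 12 members (21.8%, all genes 11.4%) and M in all 3 maps with 11 (20%, all genes 10.8%). L, M and L was seen in 5 (9.09%, all genes 2.60%), L, M and M in 2 (all genes 6.91%), M, E and M in 2 (all genes 3.42%), and M, M and L in 1 (all genes 1.48%). E in all 3 maps, the largest class of all genes at 38.1%, held 3 members, namely Klrg2, Clec2l and Clec4f. The 19 members with E, E and M are neighbours in 1 domain per map, as are the 12 that were L throughout, so these are counts of genes and not of independent domains.

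Split at gaps over 1 Mb, the members formed 5 clusters. Of these, 41 lay in the NK complex from Klrb1a to Klra2, whose first and last gene starts are 2624 kb apart (mm9, positions 128572952 and 131197380 of chromosome 6). Another 10 lay from Klrg1 to Clec4e over 1007 kb (122232900 to 123239889). The other 4 were the pair Klrg2 and Clec2l, Clec5a alone and Clec4f alone.

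**Figure D2:**
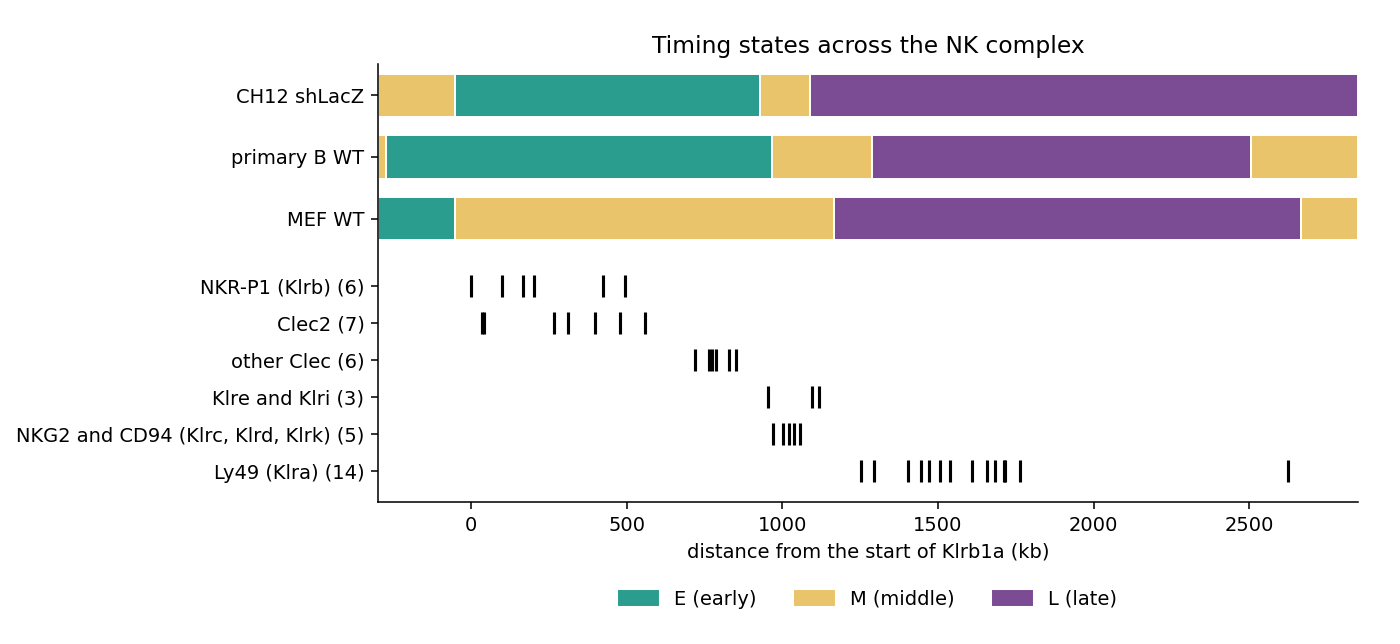
Timing states of the CH12 shLacZ, primary B WT and MEF WT maps along the NK complex, by distance from the start of Klrb1a in kb, with a tick for each gene start by family (number of genes in brackets). The E state covered the NKR-P1, Clec2 and other Clec genes in both B cell maps and none of the complex in MEF WT, and the Ly49 genes lay in the L state apart from Klra17 and Klra2 in primary B cells.

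The NK complex passed from E through M to L in both B cell maps, in the order of its gene families. In CH12 shLacZ an E domain of 980 kb (128520001 to 129500000) held the first 19 members, an M domain of 160 kb (129500001 to 129660000) the next 6, and an L domain of 3920 kb (129660001 to 133580000) the last 16. In priB WT the E domain was 1240 kb long (128300001 to 129540000) with 20 members, the M domain 320 kb (129540001 to 129860000) with 8, and the L domain 1220 kb (129860001 to 131080000) with 12, before a second M domain of 420 kb that held Klra2. In MEF WT 27 members lay in an M domain of 1220 kb (128520001 to 129740000) and 14 in an L domain of 1500 kb (129740001 to 131240000). Of the 132 bins of 20 kb from Klrb1a to Klra2, 47 were E in CH12 shLacZ (35.6%, 28.0 to 44.1%), 49 in priB WT (37.1%, 29.4 to 45.6%) and 0 in MEF WT (Wilson upper bound 2.83%), while E bins made up 22.5%, 25.6% and 28.9% of chromosome 6. L bins numbered 77 (58.3%, 49.8 to 66.4%), 61 (46.2%, 37.9 to 54.7%) and 73 (55.3%, 46.8 to 63.5%) in the same order, beside 50.8%, 40.8% and 34.2% of the chromosome's bins. The chromosome's shares are over bins with a state, 7476 in CH12 shLacZ and MEF WT and 7326 in priB WT. Bins that share a domain are not independent, so these intervals are too narrow to set against the chromosome's shares. In MEF WT the L bins all lie in the L domain named above. With clusters split at 500 kb, which leaves out Klra2, the L share of MEF WT was 33.7%.

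The 6 NKR-P1 genes and 7 of the 8 Clec2 genes were E in CH12 shLacZ, E in priB WT and M in MEF WT. They are Klrb1a, Klrb1, Klrb1c, Klrb1b, Klrb1f and Klrb1-ps1, which the annotation lists as protein-coding in spite of its name, interleaved with Clec2j, Clec2h, Clec2i, Clec2g, Clec2f-ps, Clec2e and Clec2d. Clec2d and Clec2g encode ligands of NKR-P1 receptors. Klrb1a, the first gene of the complex, started 53.0 kb inside the E domain of CH12 shLacZ and 273 kb inside that of priB WT. Klrb1c started 219 kb from the nearest edge in CH12 shLacZ, 439 kb in priB WT and 219 kb in MEF WT. Clec2d lay 369, 409 and 609 kb from the nearest edge in the 3 maps. Receptors and ligands of this system therefore sat in 1 E domain in each B cell map and in 1 M domain in MEF WT.

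The next 6 genes had the same states. Clec12a, an inhibitory myeloid receptor, Clec12b, Clec1b, the platelet receptor for podoplanin, Clec9a, which binds actin of dead cells on dendritic cells, Clec1a, and Clec7a, a receptor for fungal beta-glucan, were E in both B cell maps and M in MEF WT. Clec7a started 77.2 kb from the end of the E domain in CH12 shLacZ and 117 kb from it in priB WT. Cd69, an early activation antigen of lymphocytes that lies between Clec2d and Clec12a and is no member, was likewise E, E and M.

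The 5 genes of the NKG2 and CD94 group were M in every map. Klrd1, the CD94 gene, started 41.8 kb from an edge in CH12 shLacZ, 1.80 kb in priB WT and 198 kb in MEF WT. The value in priB WT is the smallest distance of any member in any of the 3 maps, and is less than 1 bin. Klrk1, the NKG2D gene, lay 73.9, 33.9 and 166 kb from the nearest edge, and Klrc1, the inhibitory NKG2A gene, 31, 89.0 and 111 kb. Klrc2, which encodes an activating receptor, lay at 49.3, 70.7 and 129 kb, and Klrc3 at 66.6, 53.4 and 147 kb. The M domain that held these genes in CH12 shLacZ was 160 kb long, under the 300 kb span over which the authors smoothed the values.

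On either side of that group, the states of Klre1, Klri1 and Klri2 differed between the maps. Their products form heterodimeric receptors in which Klre1 is the shared partner. Klre1 was M in CH12 shLacZ, E in priB WT and M in MEF WT, and started 27.9, 12.1 and 212 kb from the nearest edge. Klri1 was L in CH12 shLacZ but M in priB WT and MEF WT, with 7.15, 127 and 72.8 kb to the nearest edge. Klri2 had the same states as Klri1, with 30.5, 151 and 49.5 kb.

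All 14 Ly49 genes were L in CH12 shLacZ and MEF WT. In priB WT 12 were L, while Klra17 and Klra2, the first and the last of the row, were M. The 14 genes are all on the minus strand, and 13 of them, from Klra17 to Klra1, start within 510.2 kb of one another. Klra1 is followed by 860.5 kb with few genes before Klra2. Klra4 and Klra8, which encode the activating receptors Ly49D and Ly49H, started 357 and 419.9 kb from the nearest edge in CH12 shLacZ, 157 and 219.9 kb in priB WT and 277 and 339.9 kb in MEF WT. Klra1, which encodes the inhibitory receptor Ly49A, lay 677, 477 and 597 kb from an edge. Klra17, which encodes Ly49Q and is known from plasmacytoid dendritic cells and other myeloid cells rather than NK cells, lay 167, 33.3 and 86.7 kb from one. Klra5 is the next gene after Klra17 and was L in priB WT at 7.67 kb from the same edge, with a gene body that spans both states. Klra2 lay 1537, 117 and 42.6 kb from an edge.

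**Figure D3:**
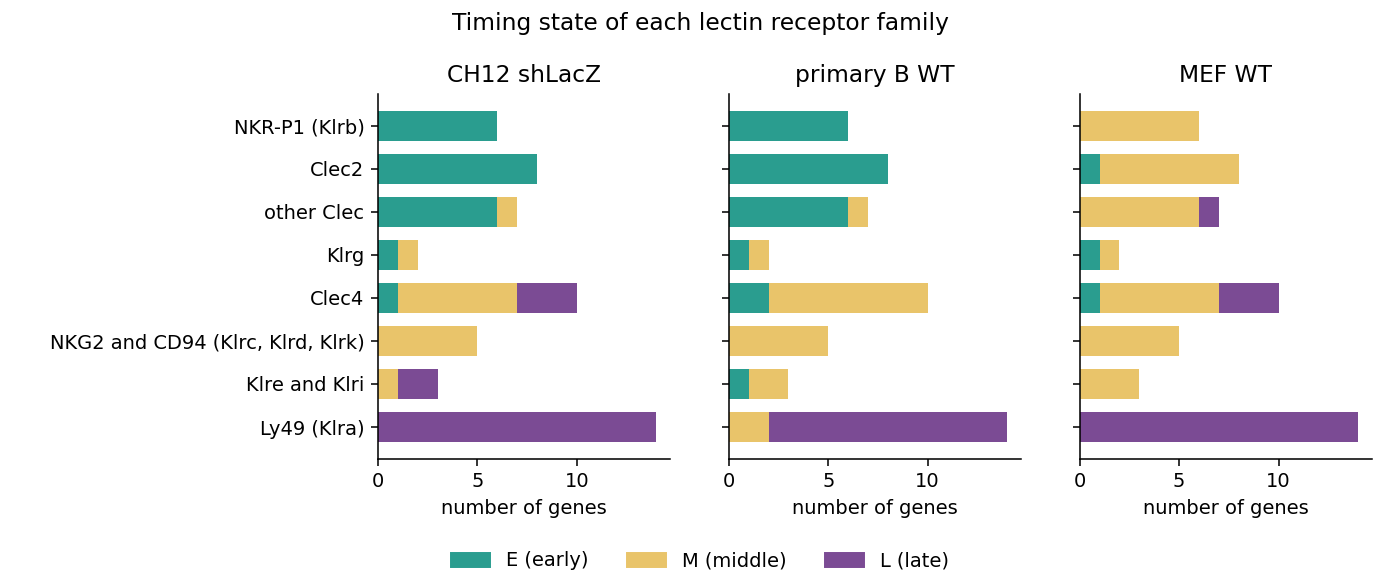
Number of genes in each timing state, by lectin receptor family, in the CH12 shLacZ, primary B WT and MEF WT maps. The 6 NKR-P1 genes were E, E and M, the 5 NKG2 and CD94 genes M in each map, and the 14 Ly49 genes L but for 2 in primary B cells.

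The place where the L domain began differed by up to 200 kb between the maps. It lay between Klrc1 and Klri1 in CH12 shLacZ, 80 kb further on between Klri2 and Klra17 in MEF WT, and 200 kb further on between Klra17 and Klra5 in priB WT. The end of the E domain was 40 kb further on in priB WT than in CH12 shLacZ, between Klre1 and Klrd1 in place of between Clec7a and Klre1. At the other side, the E domain began 220 kb earlier in priB WT. CH12 shLacZ passed from M to E and MEF WT from E to M at the same position, 128520001, with a difference of 0 kb. These shifts are below the smoothing span. The far end of this L domain differed by more, at 133580000 in CH12 shLacZ, 131080000 in priB WT and 131240000 in MEF WT. In priB WT an M domain of 420 kb followed, and then another L domain from 131500001 to 133500000. In MEF WT an M domain of 200 kb (131240001 to 131440000) followed, which is under the smoothing span. L states returned beyond both M domains, so these positions do not mark where late replication of the region ended. Along the complex, family and position along the chromosome cannot be told apart.

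The 10 members from Klrg1 to Clec4e replicated in M or L states in CH12 shLacZ and MEF WT, and none was L in priB WT. Klrg1, an inhibitory receptor for cadherins and a marker of mature NK and T cells, was M in all maps. Clec4a1 was M, E and M, and started 112, 8.13 and 268 kb from the nearest edge. Clec4a3, Clec4a4, Clec4b1, Clec4a2 and Clec4b2 were M in all maps. Clec4a2 encodes an inhibitory receptor of dendritic cells and lay 104, 176 and 83.6 kb from an edge. Clec4n, Clec4d and Clec4e encode receptors that recognise fungal or mycobacterial glycans and glycolipids, and were L, M and L. In CH12 shLacZ they shared an L domain of 260 kb (123160001 to 123420000), with starts 19.9, 52.1 and 79.9 kb from its edge. In MEF WT their L domain was 820 kb long (123140001 to 123960000), with the starts 39.9, 72.1 and 99.9 kb inside. In priB WT they lay 299.9, 332 and 340.1 kb inside an M domain of 700 kb (122880001 to 123580000). Of the 51 bins of this stretch 12 were E in CH12 shLacZ (23.5%, 14.0 to 36.8%), 28 in priB WT (54.9%, 41.4 to 67.7%) and 0 in MEF WT (upper bound 7%). E bins made up 22.5%, 25.6% and 28.9% of chromosome 6 in these maps, so the share in CH12 shLacZ was that of the chromosome. Only Clec4a1 of the 10 members lay in the E part, and in priB WT alone.

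**Figure D4:**
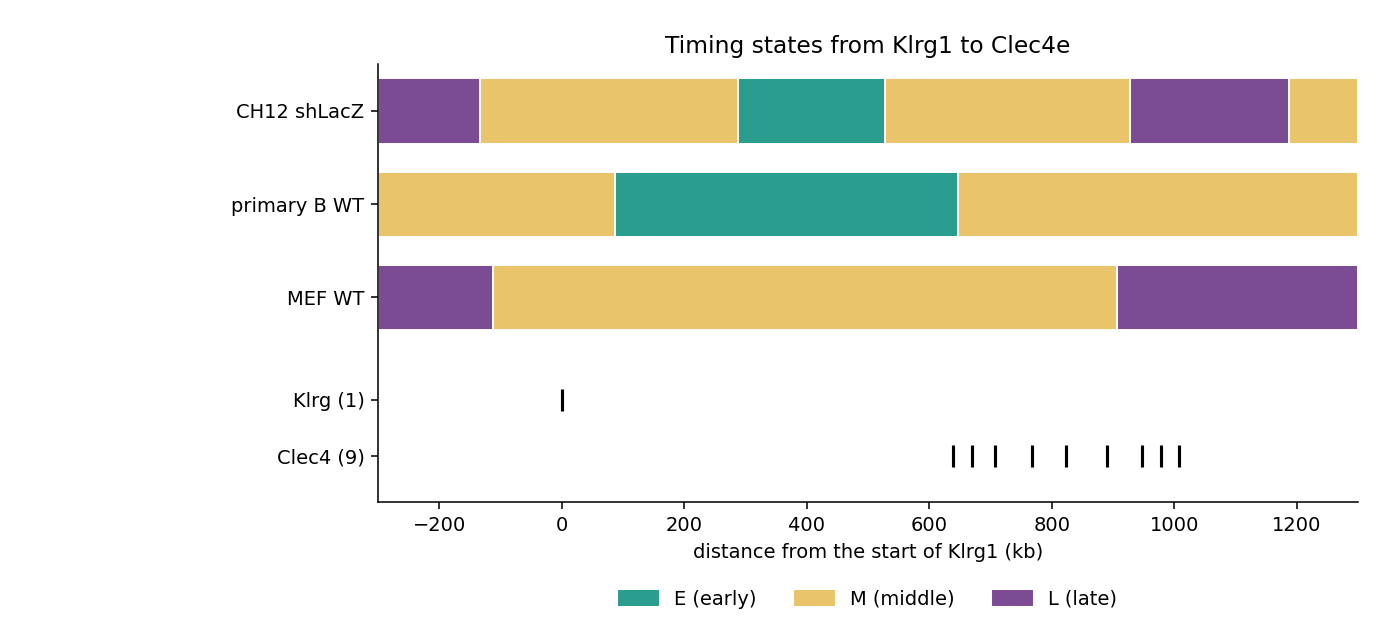
Timing states of the 3 maps from Klrg1 to Clec4e, by distance from the start of Klrg1 in kb, with a tick for each gene start. An E domain lay between Klrg1 and the Clec4 genes in CH12 shLacZ. In primary B cells an E domain covered 28 of 51 bins and reached past the start of Clec4a1, and MEF WT had none. The last 3 Clec4 genes were L in CH12 shLacZ and MEF WT and M in primary B cells.

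The 4 members outside these clusters were placed far from the other lectin genes. Klrg2, a little-studied relative of Klrg1, and Clec2l, a relative of the Clec2 ligands that is expressed in the brain, were E in all maps within E domains of 1880, 2240 and 3040 kb. Clec4f, the galactose-binding receptor of Kupffer cells, was E in all maps within domains of 1240, 1340 and 2100 kb. Clec5a, an activating myeloid receptor, was M in both B cell maps and L in MEF WT, 44.2, 124 and 136 kb from an edge. The 10 protein-coding genes within 500 kb of Klrg2 and Clec2l and the 21 within 500 kb of Clec4f were E in each map. Of the 19 within 500 kb of Clec5a, 8 had its states, 6 were L, M and L, 4 were M in each map and 1 was L in each.

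Between CH12 shLacZ and priB WT 46 members had the same state (83.6%, 71.7 to 91.1%). The other 9 were 1 step earlier in priB WT (16.4%, 8.86 to 28.3%), where 20.2% of all genes were earlier. None was later in priB WT (0 of 55, Wilson upper bound 6.53%), a direction taken by 2.98% of all genes. The 9 are Clec4a1, Clec4n, Clec4d, Clec4e, Klre1, Klri1, Klri2, Klra17 and Klra2. Of these, 8 started within 100 kb of a domain edge in at least 1 of the B cell maps, and Klra2 did not. Among members over 100 kb from an edge in both B cell maps 1 of 31 was earlier in priB WT (3.23%), beside 12.6% of the 25394 genes at such a distance. The B cell maps were segmented separately, so the RT values at which their states part can differ. The part of this in the differences was not tested.

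Both comparisons with MEF WT share that 1 map. Against CH12 shLacZ 20 members were later in MEF WT (36.4%, 24.9 to 49.6%), a direction of 7.32% of all genes. They are the 19 genes from Klrb1a to Clec7a and Clec5a. Earlier in MEF WT than in CH12 shLacZ were Klri1 and Klri2, 2 of 55 (3.64%, 1.00 to 12.3%), where 24.5% of all genes were earlier. Against priB WT 27 members were later in MEF WT (49.1%, 36.4 to 61.9%, all genes 12.7%) and 0 were earlier (upper bound 6.53%, all genes 13.8%). No member moved by 2 steps, from E to L or back, between any pair of maps (0 of 55, upper bound 6.53%), a move that was also rare among all genes, at 0.561% between the B cell maps, 2.32% between CH12 shLacZ and MEF WT and 0.862% between priB WT and MEF WT. Since each map was segmented on its own, the RT values at which the states part can differ between any of the maps.

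Genes of other families that lie among the members take the state of the domain over their start, by construction. Of the 12 protein-coding non-members between Klrb1a and Klra2, 7 were E, E and M, and these include Cd69, Olr1, the receptor for oxidised LDL, and Gabarapl1, an autophagy gene. The others were L in CH12 shLacZ, with Gm156 L, M and M, Gm17631 and Gm5581 L, M and L, and Gm11082 and Gm11081 L throughout. States just before the complex followed other combinations. Of the 12 protein-coding genes in the 500 kb before Klrb1a, 8 were M in CH12 shLacZ and E in priB WT and MEF WT, among them Foxm1, a cell cycle transcription factor, and Fkbp4, a cochaperone. A further 3 were M, M and E, and BC048546, next to Klrb1a, was E, E and M. In the 500 kb after Klra2, 6 bitter taste receptor genes (Tas2r) were L in all maps, and 5 genes, among them Magohb and Styk1, were L, M and M.

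**Figure D5:**
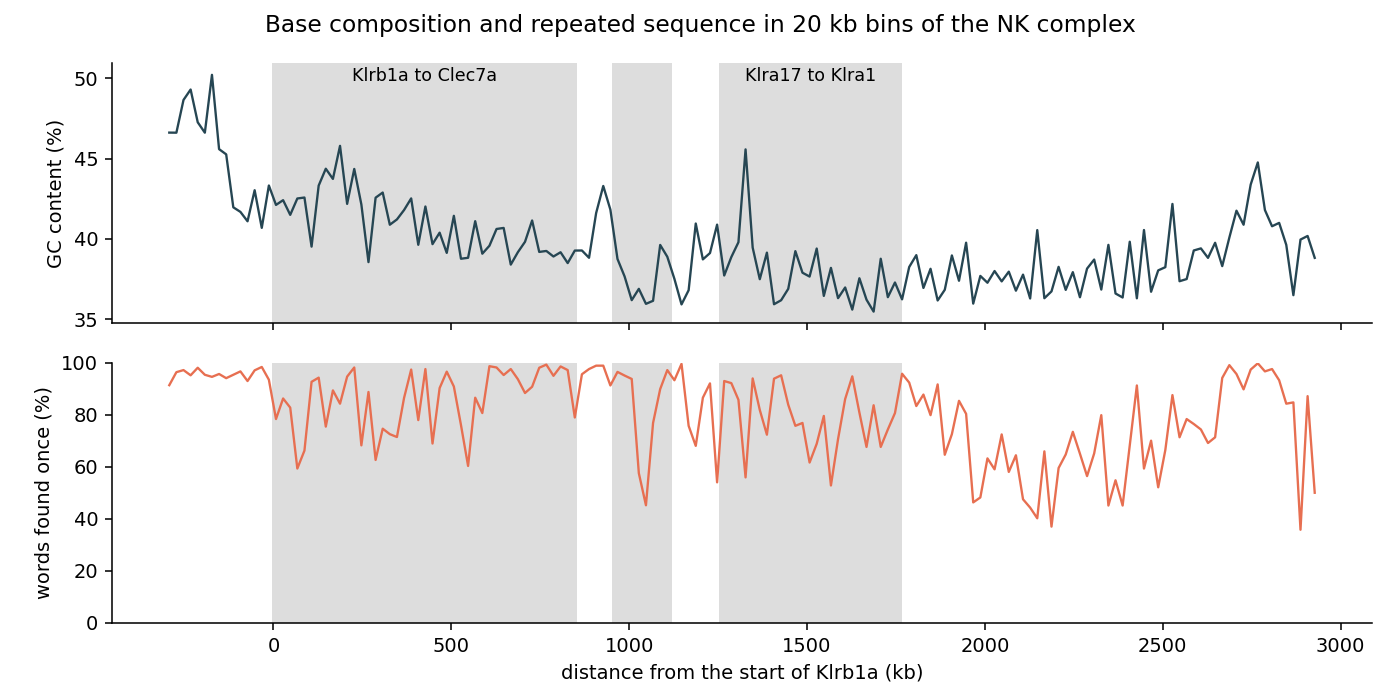
GC content (%) and share of 50-base words found once in the mm9 genome (%) in 20 kb bins, by distance from the start of Klrb1a in kb. Each bin is drawn at its upper limit and not at its centre. Grey bands mark Klrb1a to Clec7a, Klre1 to Klri2 (unlabelled) and Klra17 to Klra1; GC content was 40.9%, 37.5% and 37.8% in them, and the stretch after Klra1 had the fewest words found once (67.1%).

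GC content and the share of repeated sequence differed along the complex. From Klrb1a to Clec7a, the E part of the B cell maps, GC content was 40.9%. It was 37.5% from Klre1 to Klri2, 37.8% from Klra17 to Klra1 and 37.9% from Klra1 to Klra2, while chromosome 6 as a whole had 41.4%. For scale, E bins of chromosome 6 had 44.7% GC in CH12 shLacZ, M bins 43.0% and L bins 39.2%. Words of 50 bases from chromosome 6 were counted over the whole mm9 genome. The share found once was 85.7% from Klrb1a to Clec7a, 82.7% from Klre1 to Klri2 and 79.4% from Klra17 to Klra1. It was 67.1% from Klra1 to Klra2, beside 89.7% for all words of chromosome 6. From Clec4a1 to Clec4e it was 75.8%, and from Klrg1 to Clec4a1 it was 93.7%. In 9 of the 132 bins of the NK complex under 50% of the words were found once, and in 65 at least 80% were. Bins with few such words can hold few reads in a map made from reads that align once, and the part of this in the states was not tested. Unknown bases made up 0% of these stretches. Protein-coding starts were 25.9 per Mb from Klrb1a to Clec7a, 49.2 from Klre1 to Klri2, 23.5 from Klra17 to Klra1 and 3.49 from Klra1 to Klra2, against 7.83 for chromosome 6. These stretches begin and end at member starts and count those members, which raises their density by construction. They cannot be compared with the chromosome as a whole.

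The most alike pair of member promoters was found among the Ly49 genes. Over 55 pairs of Ly49 promoters identity ran from 46.5 to 86.0% with a median of 51.4%, and over 773 pairs from different families from 41.1 to 55.6% with a median of 49.7%. Klra4 and Klra8, both L in all maps, shared 86.0%. Klra17 shared 79.9% with Klra4, 79.4% with Klra8 and 75.1% with Klra2. The NKR-P1 promoters of Klrb1a and Klrb1c shared 69.4%, and those of Klrc3 and Klrc2 75.1%. Median promoter GC was 59.3% for the 3 members with E in all maps and 41.7% for the 15 with E, E and M. It was 38.6% for the 8 with M in all maps and 36.7% for the 9 with L in all maps, all Ly49 genes. Among the smaller groups it was 39.6% for L, M and L (4 promoters) and 41.6% for M, E and M (2). The single promoters with L, M and M and with M, M and L had 41.3% and 45.7%. State and family cannot be told apart in these groups.

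Partner genes of these receptors elsewhere in the genome were also placed. Of 44 listed genes 38 were matched, and Syk, H60a, Raet1a, Raet1b, Raet1e and Ulbp1 were not analysed here. The matched genes comprised 23 E, 10 M and 5 L in CH12 shLacZ, 30 E, 6 M and 2 L in priB WT and 25 E, 11 M and 2 L in MEF WT. Their E shares were 60.5%, 78.9% and 65.8%, beside 50.6%, 58.0% and 58.6% of protein-coding genes. Among 15 adaptor and signalling genes 12, 14 and 13 were E and 0 were L, and Tyrobp and Hcst, which encode the adaptors DAP12 and DAP10 of the activating receptors, were E in each map. Of 9 ligand genes the classical MHC genes H2-K1 and H2-D1, the Qa-1 gene H2-T23 and Cdh1, whose product Klrg1 binds, were E in each map. The NKG2D ligand genes H60b, Raet1c and Raet1d were M, E and M, and H60c was L in each. Among 14 NK effector and identity genes 6 were E in CH12 shLacZ, 8 in priB WT and 8 in MEF WT. Prf1, the perforin gene, and Tbx21, which encodes T-bet, were E in each map, Cd226 was L in each, the adhesion receptor genes Cd96 and Itga2 were L, M and E, Ifng was L, E and M, and Ncr1, the gene of the NK marker NKp46, was M in each map.

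Other receptor loci had other patterns. The 8 Clec genes off chromosome 6 comprised 5 E, 2 M and 1 L in CH12 shLacZ, 6, 1 and 1 in priB WT and 4, 3 and 1 in MEF WT. Thus 4 of 8 were E in MEF WT (50.0%, 21.5 to 78.5%), beside 5.45% (1.87 to 14.9%) of the members, a difference given without a test. The 42 H2 genes of chromosome 17, which include the ligands of the Ly49 receptors, comprised 28 E, 8 M and 6 L in CH12 shLacZ, 32, 9 and 1 in priB WT and 30, 11 and 1 in MEF WT. The 6 Lilr, Pira, Pirb and Ncr1 genes of chromosome 7, which belong to the leukocyte receptor complex, were all M in CH12 shLacZ and MEF WT, and 4 of them were E in priB WT.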

How the data were processed

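Repli-seq libraries of the early and late S phase fractions were grouped by sample title. According to the methods, the authors trimmed reads with Trim Galore 0.6.5, aligned them to mm9 with BWA 0.7.17, kept unique alignments with SAMtools 1.9, merged replicates and removed duplicates. They then computed log2 early over late reads in 20 kb windows, smoothed it over 300 kb and called 3 states with a hidden Markov model. The deposited score is a state number per domain, without RT values, so replicate spread and depth are lost and edges are blurred. The number stands for E, M or L as the rule for the members gives it. In each map E and L domains touched in 0 places, and protein-coding starts per Mb fell from E to L, for example from 18.9 through 8.41 to 3.76 in CH12 shLacZ.

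Gene models were those of GENCODE M1 on NCBIM37 (mm9), and each map reached the end of all 20 chromosomes of that build. The strand-aware gene start decided the state, and clusters were split at gaps over 1 Mb. Words of 50, 36 and 100 bases were sampled along chromosome 6 and counted on both strands of the whole mm9 genome. Promoters (250 bases before to 50 after the start) came from RefSeq on GRCm38.p6 and were not joined to mm9 coordinates. The members, families and lists of other genes were chosen with earlier results of these data known. Named were the first and last gene of each cluster, members E in a B cell map, the 3 nearest a domain edge in each map, those that differed between the B cell maps, and a list of known receptors. The functions were tested on simulated data, and 6 of 6 checks passed. The software was Python 3.11.15 with Biopython 1.88, numba 0.67.0, pandas 2.3.3, numpy 2.4.6 and matplotlib 3.10.9. Alternatives were other ways to place a gene, protein-coding genes, distance from edges, joined domains, domains counted once, the largest cluster, chromosome 6 as background, other cluster limits and other word lengths. Some items that fall between the members are not reported here.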

Additional observations from a re-analysis of the deposited data

How the results depend on the processing

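No paired analysis was possible because the maps hold merged replicates, 1 map per condition, and no test was made. Of 81 alternative shares of members by state, 71 stayed within the Wilson interval of the main value and 10 did not. Placing genes by their end, midpoint or gene body, joining domains across 40 kb and protein-coding members alone kept all shares within it, as did the lower coordinate, which was chosen after seeing the data. Over 100 kb from an edge, 23.3% of members were M in priB WT. In the NK complex alone, 14.6% were M in CH12 shLacZ, 22.0% M in priB WT and 0% E in MEF WT. With each domain counted once, 44.4% were M and 22.2% L in CH12 shLacZ, 50.0% M and 10% L in priB WT, and 28.6% E and 28.6% M in MEF WT, so the low E share of MEF WT rests on how many members share an M domain. Domain counts hold many M domains by construction, since M domains part E from L, and no share over all domains stands beside them. The share earlier in priB WT than in CH12 shLacZ was 3.23% over 100 kb from an edge. Of genes of chromosome 6 alone, 40.9% were E, 30.0% M and 29.1% L in CH12 shLacZ, 45.4%, 35.8% and 18.8% in priB WT and 44.6%, 33.1% and 22.3% in MEF WT, and that L share lies inside the members' interval.

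Bin shares follow the limits of a cluster by construction. Split at 500 kb, Clec4a1 to Clec4e had 0% E and 21.1% L in CH12 shLacZ, 5.26% E and 94.7% M in priB WT, and 73.7% M and 26.3% L in MEF WT. Widened by 500 kb on each side, Klrg1 to Clec4e had 11.9% E, 46.5% M and 41.6% L in CH12 shLacZ, 27.7% E and 16.8% L in priB WT, and 50.5% M and 49.5% L in MEF WT. Without bins within 100 kb of an edge it had 9.09% E, 90.9% M and 0% L in CH12 shLacZ, and 100.0% M and 0% L in MEF WT. Split at 500 kb, Klrb1a to Klra1 had 52.8% E and 38.2% L in CH12 shLacZ, 55.1% E and 27.0% L in priB WT, and 66.3% M and 33.7% L in MEF WT. Widened, the NK complex had 26.9% E and 17% M in CH12 shLacZ, 26.9% M in priB WT and 12.6% E in MEF WT. Without bins near an edge, M bins fell to 0% in CH12 shLacZ and 6.86% in priB WT. Bins of wholly unknown bases were absent from both clusters.

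The order of word shares changed with word length. With 36 bases 90.4% of words were found once from Klrg1 to Clec4a1, 68.8% from Clec4a1 to Clec4e, 80% from Klrb1a to Clec7a, 78.4% from Klre1 to Klri2, 68.6% from Klra17 to Klra1, 55.1% from Klra1 to Klra2 and 86.2% on chromosome 6. With 100 bases the shares were 97.6%, 87.5%, 93.7%, 90.2%, 92.9%, 86.8% and 94.5%. The lowest share stayed that from Klra1 to Klra2. Domain edges are limited by the smoothing span, and the depth behind the states is unknown.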

Other observations

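Genes of other families lie between Klrg1 and Clec4a1. Of the 15 protein-coding non-members between Klrg1 and Clec4e, 8 were M in CH12 shLacZ, E in priB WT and M in MEF WT, among them Foxj2 and C3ar1. Another 5 were E, E and M, namely the cytidine deaminase gene Apobec1, the pluripotency genes Nanog, Dppa3 and Gdf3, and the glucose transporter gene Slc2a3. M6pr and Phc1, next to Klrg1, were M in all maps. In all, 13 of the 15 were E in priB WT, 5 in CH12 shLacZ and 0 in MEF WT, beside 58.0%, 50.6% and 58.6% of protein-coding genes. The 13 lie in 1 E domain of 560 kb in priB WT and the 5 in 1 E domain of 240 kb in CH12 shLacZ. They are counts of genes and not of independent domains. No RT value is held by the maps, so a gene that passed from M to E may have moved by little.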
